A study of Mus musculus with 72 samples.

Results

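The nuclear-encoded subunits of the oxidative phosphorylation complexes were examined in the hypothalamus, hippocampus, neocortex and cerebellum of virgin, pregnant and nursing mice. Members were protein-coding genes whose symbol starts with Ndufa, Ndufb, Ndufc, Ndufs, Ndufv, Sdh, Uqcr, Cox4i, Cox5, Cox6, Cox7, Cox8 or Atp5, leaving out assembly factors named Ndufaf or Sdhaf and the pseudogenes named Uqcrh-ps. Each also had to reach 1 FPKM, a level scaled for transcript length and sequencing depth, in all 3 mice of at least 1 stage of a region. Of 39179 gene IDs in the count table, 94 had a matching name, 85 of them were protein coding and 82 passed, among 15348 genes that passed the FPKM rule in at least 1 region. By complex the members were 36 genes of complex I, 4 of complex II, 8 of complex III, 15 of complex IV, 16 of complex V and 3 genes whose names match but which are not counted as subunits. The last are Ndufa4l2, a paralog of Ndufa4, Cox7a2l, a factor of respiratory supercomplexes, and Atp5s, coupling factor B.

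Oxidative phosphorylation takes place at the inner mitochondrial membrane. Complex I takes electrons from NADH and complex II from succinate, and both pass them to ubiquinone. Complex III passes them on to cytochrome c, and complex IV, cytochrome c oxidase, passes them to oxygen. Proton pumping by complexes I, III and IV drives the ATP synthase, complex V. A few subunits are encoded by mitochondrial DNA and all others by nuclear genes, so that each complex other than complex II is built from both genomes. Neurons draw most of their ATP from this pathway, and several complex IV subunits exist as tissue isoforms.

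The series holds 72 RNA-seq libraries from 18 female C57BL/6J mice, with 3 mice at each stage and the 4 regions taken from every animal. Dams were pregnant mice at 14 and 16 days after conception (PC14, PC16) and nursing mice at 1, 3 and 10 days after birth (PP1, PP3, PP10), and they were compared with age-matched virgin females taken at any phase of the cycle. All were C57BL/6J mice mated, where pregnant, to males of the same strain, and no agent or allele was added. Animals are named here as in the library names, with VirB, VirM and VirO for the virgins. Total counts ran between 8875029 and 14208864 per library. Hypothalamus libraries were made from 1 µg of total RNA and the others from 5 µg, so region and input cannot be told apart. The region labels were borne out by the summed level of their markers: cerebellum markers summed to 4779 to 5284 CPM (counts scaled for library size) in the cerebellum and to at most 226 elsewhere, and hypothalamus markers to 759 to 1899 CPM in the hypothalamus and to at most 6.41 elsewhere. The hypothalamus sum differed by stage, at 759 to 1417 CPM in pregnant mice, 1015 to 1899 CPM in nursing mice and 1551 to 1695 CPM in virgins. The part of this difference in the results below was not tested. For the hippocampus the markers summed to 526 to 589 CPM and elsewhere had medians of 109.8 to 212 CPM, and for the neocortex to 698 to 838 CPM and elsewhere to at most 188. In bulk tissue, fewer cells of a type and less RNA per cell cannot be told apart.

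Complex V and complex III had the highest median levels per length. The median over members of the mean FPKM over 72 libraries was 104 for complex I (22.9 for Ndufa11 to 188 for Ndufa3), 87.3 for complex II (55.4 for Sdhd to 186 for Sdha), 168 for complex III (68.5 for Uqcrfs1 to 217 for Uqcrq), 164 for complex IV (1.99 for Cox4i2 to 543 for Cox8a) and 183 for complex V (76.7 for Atp5l to 952 for Atp5b). Over all 82 members the median was 116 FPKM, and 7 lay below 10 FPKM, 5 of them in complex IV. Atp5b, the catalytic beta subunit of the ATP synthase, had 861 ± 61.5, 910.1 ± 36.8, 905 ± 48.9 and 1130.0 ± 104 FPKM in the hypothalamus, hippocampus, neocortex and cerebellum (SD, n = 18 each). Its level was highest in the cerebellum, and the means of the hippocampus and neocortex lay within 1 SD of each other. Cox8a, a small membrane subunit of complex IV, had 388 ± 24.4, 555 ± 25.7, 579 ± 26.2 and 650.1 ± 107 FPKM in the same order, lowest in the hypothalamus. Uqcrq, a small subunit of complex III, had 193 ± 13.7, 222 ± 13.2, 208 ± 9.50 and 243 ± 35.9 FPKM, and Ndufa3, a supernumerary subunit of complex I, 201 ± 19.2, 183 ± 13.9, 163 ± 7.22 and 205 ± 44.6 FPKM. Sdha, the flavoprotein of complex II that oxidises succinate, had 249 ± 12.6, 152 ± 9.65, 159 ± 9.04 and 183 ± 8.74 FPKM and was the one of these 5 with its highest mean in the hypothalamus. The cerebellum means include VirB and VirM, libraries in which short transcripts were over-represented, as described below. For Ndufa3 the median CPM was 55.8 in the cerebellum (highest library 97.8) and 56.3 in the hypothalamus, so these regions were level.

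**Figure D1:**
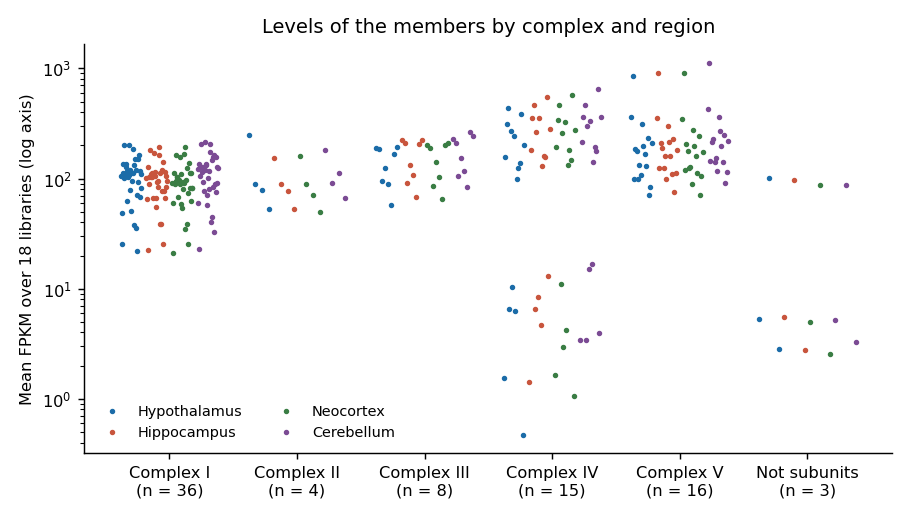
Mean FPKM of each member over the 18 libraries of a region (log axis), grouped by complex (n = 36, 4, 8, 15, 16 and 3 genes). Each point is 1 gene. Most points lie near 100 FPKM or above, and the low points in complex IV are tissue isoforms such as Cox4i2 at 1.99 FPKM over all libraries.

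The tissue isoforms differed by orders of magnitude. Cox6a1 had 433, 469.8, 464 and 461 FPKM in the hypothalamus, hippocampus, neocortex and cerebellum, while its heart and muscle counterpart Cox6a2 had 6.51, 6.57, 10.97 and 3.42 FPKM. Cox6b1 had 269, 266, 259 and 298 FPKM and Cox6b2, known from testis, 10.3, 8.42, 2.97 and 15.1 FPKM. Cox8b, the heart and muscle form of subunit 8, had 0.471, 13.1, 1.06 and 3.98 FPKM, and Cox7a1, the heart and muscle form of subunit 7a, 6.27, 4.65, 4.18 and 16.6 FPKM. Cox4i2, an isoform known from lung, had 1.53, 1.41, 1.63 and 3.39 FPKM. Ndufa4, first placed in complex I and now in complex IV, had 202, 284, 276 and 363 FPKM, against 2.85, 2.79, 2.53 and 3.27 FPKM for its paralog Ndufa4l2. The 3 genes that encode the same c subunit of the ATP synthase ring were all expressed, with 134, 159, 128 and 155 FPKM for Atp5g1, 109, 99.0, 88.9 and 116 FPKM for Atp5g2 and 315, 301, 275 and 364 FPKM for Atp5g3. Atp5g3 was the highest of them in every region.

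The other 3 protein-coding names were left out by the FPKM rule. Cox4i1, the main isoform of subunit 4, had blank FPKM cells in every library although its mean count was 4830, so its absence from the members reflects the FPKM table and not its level. Cox7b2 and Cox8c, both known from testis, had mean FPKM of 0.269 and 0.0040. Another 9 names with a match were processed pseudogenes, near-identical copies of members that can take reads of the parent gene. The highest were Ndufb4c (38.7 FPKM), Cox6c2 (3.84 FPKM) and Ndufab1-ps (1.495 FPKM), so Ndufb4, Cox6c and Ndufab1 are uncertain to that extent. The library strand is not given in the sources used here, and 29 exon overlaps between a member or Cox4i1 and another gene were found. Reads of Ndufa4l2 and Shmt2, Ndufs1 and Eef1b2, Ndufb2 and Braf, Atp5d and Cbarp, Ndufs6 and Mrpl36, Cox5a and Gm26631 or Ndufb6 and Smim27 from the shared bases cannot be told apart.

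The members' promoters are shown because respiratory genes of mammals are known targets of NRF1, of the ETS factor GABP, of ERR receptors and of YY1. Whether these motifs bear on the differences between groups was not tested. In the RefSeq table of 300 base windows (250 bases before to 50 after the start, GRCm38.p6), 66 of 82 members had an entry. On either strand, GCATGCGC, the core of the NRF1 motif, was present in the windows of 10 of 66 members (15.2%) and 3.94% of all 17492 genes. The ETS motif CCGGAAG was present in 16 members (24.2%, against 12.9% of all genes), the ERR site AAGGTCA in 8 (12.1%, against 4.73%) and the YY1 motif AAGATGGC in 9 (13.6%, against 3.57%). At least 1 of the 4 was found in 33 of 66 members (50%) and in 22.7% of all genes. These are letter matches and not measured binding. GCATGCGC and its reverse complement overlap each other by 6 bases, so 1 stretch can match on both strands, and only 1 of the matches is capitalised below.
The stretches shown belong to members named in the comparisons, with the motif or its reverse complement in capitals:
Ndufb6 ETS, chr4:40279621-40279671, minus strand: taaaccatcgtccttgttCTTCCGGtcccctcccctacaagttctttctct
Uqcrh ETS, chr4:116075071-116075106, minus strand: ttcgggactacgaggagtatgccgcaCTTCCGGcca
Sdhd ETS, chr9:50603863-50603921, minus strand: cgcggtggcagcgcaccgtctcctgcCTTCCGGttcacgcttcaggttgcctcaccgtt
Cox6a1 ETS, chr5:115348959-115349000, minus strand: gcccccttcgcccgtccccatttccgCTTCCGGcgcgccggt
Cox6a1 NRF1, chr5:115349085-115349144, minus strand: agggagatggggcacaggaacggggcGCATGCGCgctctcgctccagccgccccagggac
Atp5k NRF1, chr5:108434414-108434473, minus strand: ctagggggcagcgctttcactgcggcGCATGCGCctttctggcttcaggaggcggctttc
Ndufa8 NRF1, chr2:36049339-36049372, minus strand: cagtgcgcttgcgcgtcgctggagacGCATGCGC
The ERR site was found in Atp5e, Atp5g3, Atp5k, Atp5l, Ndufb2, Ndufb4, Ndufs5 and Sdhd, and the YY1 motif in Atp5j, Atp5j2, Ndufa3, Ndufa9, Ndufb8, Ndufc1, Ndufs4, Ndufs6 and Ndufs7.

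Members were short transcripts, and libraries differed in how they represented short and long ones. The median exon length was 1578 bases for the 82 members (360 to 8086) and 4199 bases for the other 15266 genes, and the length implied by the deposited counts and FPKM was 635 and 2613 bases. In each library the slope of the log2 CPM deviation of the other genes from their region mean was taken on log2 length. In the cerebellum the slope on implied length lay between -0.0038 and 0.041 in the 15 dams, against -0.16 in VirB, -0.12 in VirM and 0.033 in VirO. Thus short transcripts of any kind were over-represented in the cerebellum libraries of VirB and VirM. The median deviation of the members in log2 CPM was -0.14 to 0.0051 in the cerebellum of dams, against 0.45 in VirB, 0.37 in VirM and -0.15 in VirO. In the other regions the slopes were smaller. In the hippocampus they were -0.026 to 0.0113 in dams and 0.0114 to 0.029 in virgins. Every virgin thus lay above every dam, though narrowly, the opposite of VirB and VirM in the cerebellum. On exon length the hippocampus slopes overlapped, at -0.025 to 0.0098 in dams and 0.0096 to 0.027 in virgins. The members' median deviation was -0.035 to 0.045 in dams and -0.094 to -0.027 in virgins. In the neocortex the slopes on implied length overlapped, at -0.019 to 0.012 in dams and 0.0076 to 0.020 in virgins, while the members' deviations did not, at -0.033 to 0.089 in dams and -0.090 to -0.047 in virgins. In the hypothalamus the members' deviation was -0.094 to 0.11 in dams, against -0.15 in VirB, -0.14 in VirM and 0.022 in VirO, with slopes of -0.014 to 0.022 in dams and -0.0061 to 0.014 in virgins. The share of all counts that fell on members was 0.898 ± 0.0316% in dams and 0.848 ± 0.0445% in virgins for the hypothalamus (SD, n = 15 and 3), 0.927 ± 0.0144% and 0.885 ± 0.0261% for the hippocampus, 0.891 ± 0.0184% and 0.856 ± 0.0131% for the neocortex, and 1.05 ± 0.0281% and 1.23 ± 0.204% for the cerebellum. In the cerebellum the virgin shares were 1.37% in VirB, 1.32% in VirM and 0.995% in VirO.

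**Figure D2:**
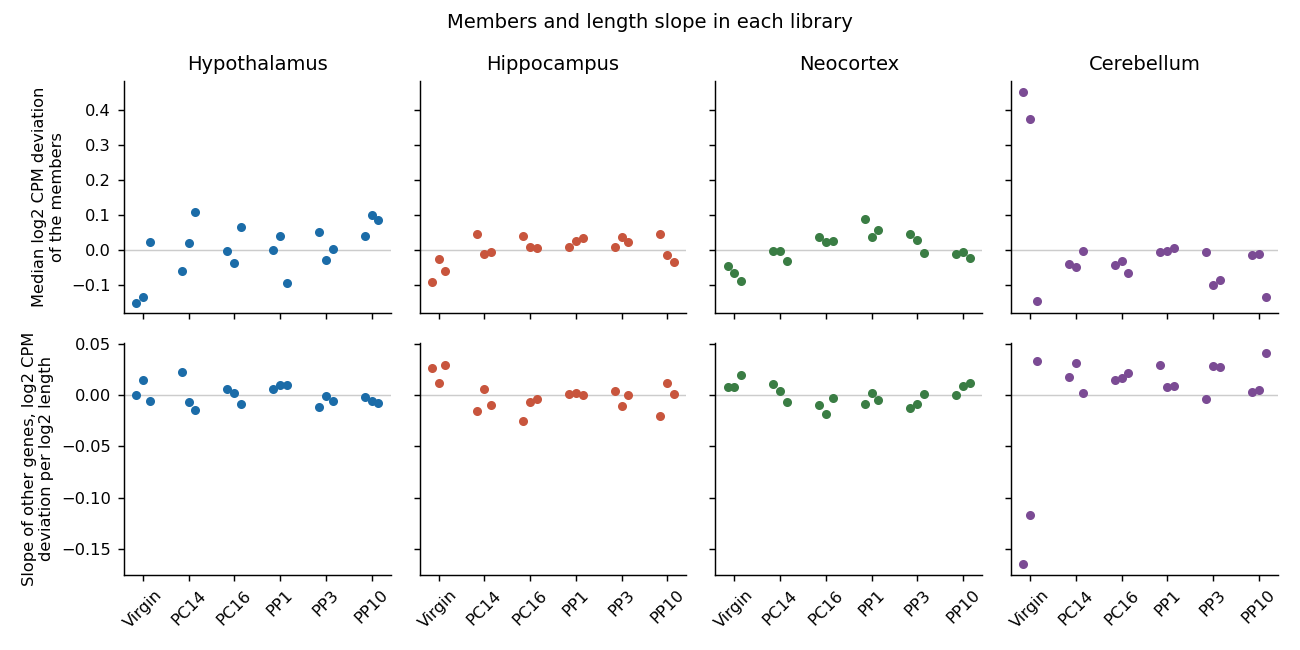
Median log2 CPM deviation of the members from their region mean in each library (top) and slope of the log2 CPM deviation of all other genes on log2 implied length (bottom), by region and stage. Each point is 1 library. The cerebellum libraries of VirB and VirM stand apart in both, with deviations of 0.45 and 0.37 and slopes of -0.16 and -0.12.

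In the hypothalamus 8 of 81 tested members were higher in dams than in virgins and none was lower (edgeR quasi-likelihood test, Benjamini-Hochberg adjusted p under 0.05), while 3.18% of all genes tested were called higher. The median log2 fold change was 0.10 over members and -0.0034 over all genes, and 79 of 81 members had a positive value. Of the called genes 4 are complex IV subunits (Cox5a, Cox7b, Cox6a1, Ndufa4), 2 are complex I subunits (Ndufb6, Ndufs7), 1 is in complex III (Uqcrc1) and 1 in complex V (Atp5b). Cox5a, a complex IV subunit on the matrix side, had 96.1 to 114 CPM in dams (median 104), against 79.7, 81.9 and 99.7 CPM in virgins for VirB, VirM and VirO, the order used throughout. The log2 fold change was 0.27 ± 0.056 (SE; edgeR adjusted p = 0.0103), and VirO lay inside the range of the dams while the other virgins lay below it. Cox6a1 showed the same arrangement, with 242 to 282 CPM in dams (median 264), against 208, 221 and 252 CPM in virgins and a log2 fold change of 0.21 ± 0.044 (SE; edgeR adjusted p = 0.0103). Cox7b, a small membrane subunit of complex IV, had 77.2 to 95.8 CPM in dams (median 87.9), against 65.9, 70.5 and 84.0 CPM in virgins and a log2 fold change of 0.24 ± 0.065 (SE; edgeR adjusted p = 0.0397). VirO again lay among the dams. Ndufb6, of the membrane arm of complex I, had 58.3 to 68.4 CPM in dams (median 62.7), against 49.1, 50.6 and 62.2 CPM in virgins (log2 fold change 0.23 ± 0.057 SE, edgeR adjusted p = 0.0291), and Ndufa4 had 75.8 to 91.4 CPM in dams (median 82.9), against 73.4, 71.9 and 77.7 CPM in virgins (log2 fold change 0.16 ± 0.043 SE, edgeR adjusted p = 0.0389). Atp5b was the one member whose dams all lay above all virgins, with 1018 to 1134 CPM in dams (median 1083), against 935, 1002 and 1017 CPM in virgins and a log2 fold change of 0.14 ± 0.033 (SE; edgeR adjusted p = 0.0233). Of all genes, 268 of 14385 were arranged in that way. Leaving out 1 library at a time gave a count of 0 without VirB, 1 without VirM, 4 without any 1 of E1467, P146, P347, P357 and P1071 and 23 without VirO. Cox5a, Cox6a1, Ndufb6 and Atp5b kept their call in 16 of 18 such fits. Of 8 neuron markers 4 were also higher in dams, and their median log2 fold change was 0.13. Their sum was 2764 to 3121 CPM in dams, against 2463, 2767 and 2826 CPM in virgins. Red blood cell markers had positive log2 fold changes for 5 of 5 genes (median 1.27) with no call, though 5 had an unadjusted p under 0.05 by edgeR, and summed to 156.01 to 1422 CPM in dams and 172 to 216 CPM in virgins. The part of either list in the result was not tested.

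By stage, PP10 differed most from virgins in the hypothalamus. Members called higher numbered 1 at PC14 (1.06% of all genes), 2 at PC16 (1.28%) and 15 at PP10 (3.87%), and none was lower. No member was called at PP1 or PP3, where 0.744% and 0.705% of all genes were called in either direction, and 14 and 17 members had an unadjusted p under 0.05. The median log2 fold change of the members was 0.10, 0.082, 0.064, 0.085 and 0.16 from PC14 to PP10. Over the 5 comparisons with virgins, which share the virgin libraries, 15 members were called at least once, against 6.85% of all genes. Ndufs7, the core iron-sulfur subunit of complex I next to ubiquinone, had 136, 135 and 145 CPM in PP10 dams, against 105, 121 and 116 CPM in virgins (log2 fold change 0.29 ± 0.056 SE, edgeR adjusted p = 0.00779). Atp5b had 1134, 1124 and 1117 CPM at PP10 (log2 fold change 0.19 ± 0.043 SE, edgeR adjusted p = 0.017) and Cox6a1 had 275, 277 and 275 CPM (log2 fold change 0.28 ± 0.056 SE, edgeR adjusted p = 0.00966). In these 3 genes every PP10 dam exceeded every virgin. The PC14 call was Ndufa4 (log2 fold change 0.23 ± 0.055 SE, edgeR adjusted p = 0.0432), and those at PC16 were Cox6a1 (log2 fold change 0.27 ± 0.056 SE, edgeR adjusted p = 0.0197) and Cox5a (log2 fold change 0.29 ± 0.070 SE, edgeR adjusted p = 0.0399). Single libraries decided these counts. At PC14 the count was 0 without any 1 of E1464, E1467, E1468, E1655, P146, P347, P353, P357, P1071, VirB and VirM and 8 without VirO. At PC16 it was 0 without any 1 of E1654, E1658, VirB and VirM, 1 without any 1 of E1467, P146, P347, P353, P357 and P1063 and 6 without VirO. At PP10 it was 1 without P1071 or VirB, 3 without VirM, 7 without P1052 or P1063 and 36 without VirO. At PP1 it was 1 without E1658 and 5 without VirO, and at PP3 7 without VirO.

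In the hippocampus 11 of 82 members were higher in dams and none was lower, while 2.23% of all genes were called higher. The median log2 fold change was 0.075 over members and 0.0023 over all genes, and 80 members had a positive value. The calls were spread over the complexes, with 5 in complex I (Ndufa12, Ndufc2, Ndufb6, Ndufa7, Ndufb11), 1 in complex II (Sdhc), 2 in complex III (Uqcrq, Uqcrh), 2 in complex IV (Cox8b, Cox6c) and 1 in complex V (Atp5g3). Ndufa12, an accessory subunit of the matrix arm of complex I, had 74.9 to 87.6 CPM in dams (median 78.2), against 66.9, 65.3 and 72.5 CPM in virgins, a log2 fold change of 0.22 ± 0.040 (SE; edgeR adjusted p = 0.00425). The groups did not overlap, and Ndufa12 was called in 17 of 18 fits with 1 library left out. Ndufb6 had 49.9 to 59.3 CPM in dams (median 53.8), against 48.7, 49.6 and 48.4 CPM in virgins (log2 fold change 0.15 ± 0.042 SE, edgeR adjusted p = 0.0383), again without overlap. Uqcrq had 112 to 129.98 CPM in dams (median 115), against 107, 107 and 107 CPM in virgins (log2 fold change 0.13 ± 0.031 SE, edgeR adjusted p = 0.0242) and Sdhc, a membrane anchor of complex II, 77.3 to 87.3 CPM in dams (median 80.4), against 73.0, 76.7 and 75.3 CPM in virgins (log2 fold change 0.11 ± 0.030 SE, edgeR adjusted p = 0.034). Neither overlapped. For Ndufc2 and Ndufa7, both of complex I, the groups overlapped, with 69.8 to 82.8 CPM in dams (median 74.2), against 59.4, 68.7 and 70.6 CPM in virgins for Ndufc2 (log2 fold change 0.18 ± 0.049 SE, edgeR adjusted p = 0.0348) and 55.9 to 70.6 CPM in dams (median 60.8), against 52.6, 58.9 and 55.5 CPM in virgins for Ndufa7 (log2 fold change 0.15 ± 0.043 SE, edgeR adjusted p = 0.0474). In all, 5 members and 100 of 13932 genes had every dam above every virgin. Over all libraries left out in turn, the count was 0 without VirB, 2 without VirO and 6 without E1464 or P1052. Of 5 red blood cell markers 3 were also higher in dams and of 4 ependyma markers 2, and their part was not tested.

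Among the members called in the hippocampus Cox8b had by far the largest log2 fold change, 2.51 ± 0.69 (SE; edgeR adjusted p = 0.0372). Its counts were 49 to 133 in 13 of the 15 dams and 5 and 7 in dams P156 and P353, against 5, 11 and 22 in virgins. Its level ran with that of choroid plexus markers, whose sum was 2452 to 5645 CPM in the 13 dams, 84.4 and 109.5 CPM in P156 and P353, and 352 to 1431 CPM in virgins. Ttr, the transthyretin gene that defines choroid plexus, had 2234 to 5158, 53.0 to 79.3 and 307 to 1288 CPM in the same sets. The part of these cells in the result was not tested. Without P156 and P353, an alternative added after seeing the data, Cox8b had a log2 fold change of 2.72 (edgeR adjusted p = 0.000259) and 13 members were called higher, against 5.42% of all genes. Both dams were picked for their low choroid plexus markers, and they were also the dams with Cox8b counts within the range of the virgins. The larger difference and smaller p of Cox8b therefore follow from that choice and add no evidence.

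Stage by stage, members called higher in the hippocampus numbered 9 at PC16 (1.43% of all genes), 5 at PP1 (0.724%) and 1 at PP3 (0.155%). None was called at PC14 or PP10, where 0.139% and 4.28% of all genes were called in either direction and 22 and 17 members had an unadjusted p under 0.05, and 12 members were called at least once (7.49% of all genes). The medians of the members were nearly level, at 0.067, 0.079, 0.082, 0.080 and 0.064 on the log2 scale for PC14, PC16, PP1, PP3 and PP10. Ndufa12 had 66.9, 65.3 and 72.5 CPM in virgins, 81.3, 74.9 and 80.7 at PC14, 87.6, 82.2 and 80.3 at PC16, 77.8, 82.5 and 85.5 at PP1, 75.01, 78.2 and 77.2 at PP3, and in PP10 dams 77.0, 75.1 and 77.7 CPM. It was the member with the smallest p at PC16 (log2 fold change 0.29 ± 0.050 SE, edgeR adjusted p = 0.00577) and at PP1 (log2 fold change 0.26 ± 0.051 SE, edgeR adjusted p = 0.00924). Uqcrq was called at the same stages (log2 fold change 0.18 ± 0.040 SE, edgeR adjusted p = 0.0237 and 0.18 ± 0.040 SE, edgeR adjusted p = 0.0214), Sdhc at PC16 (log2 fold change 0.17 ± 0.039 SE, edgeR adjusted p = 0.0237), Ndufc2 at PP1 (log2 fold change 0.26 ± 0.063 SE, edgeR adjusted p = 0.0345) and Ndufa7 at PP3 (log2 fold change 0.26 ± 0.054 SE, edgeR adjusted p = 0.0288). The PC16 count was 1 without any 1 of E1654, VirB and VirO, 3 without E1658 and 5 without E1655, the PP1 count 0 without VirB, 1 without P156, 2 without any 1 of P146, P149 and VirO and 3 without E1655 or P357, and the PP3 count 0 without any 1 of P347, P357, VirB and VirO and 2 without P353. At PC14 there was 1 without E1467 and 2 without P353, and at PP10 1 without any 1 of P146, P156 and P347 and 2 without P353.

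In the neocortex 16 of 81 members were higher in dams and none was lower, against 2.98% of all genes called higher. The median log2 fold change was 0.080 over members and -0.00069 over all genes, and 72 members had a positive value. Complex I gave 5 of the calls (Ndufv2, Ndufa12, Ndufb9, Ndufb4, Ndufb6), complex II 1 (Sdhd), complex III 2 (Uqcrh, Uqcr10), complex IV 5 (Cox5a, Cox7b, Ndufa4, Cox7a2, Cox5b) and complex V 3 (Atp5j2, Atp5g3, Atp5c1). Ndufv2, a core subunit that carries an iron-sulfur cluster in the NADH-binding module of complex I, had 62.4 to 74.5 CPM in dams (median 68.5), against 60.0, 59.6 and 61.0 CPM in virgins, with means of 69.2 ± 3.01 in dams and 60.2 ± 0.727 in virgins (SD, n = 15 and 3) and a log2 fold change of 0.20 ± 0.037 (SE; edgeR adjusted p = 0.00216). Cox5a had 116 to 136 CPM in dams (median 125), against 105, 111 and 112 CPM in virgins and a log2 fold change of 0.20 ± 0.033 (SE; edgeR adjusted p = 0.000797). In both genes the groups did not overlap, and both were called in all 18 fits with 1 library left out. Uqcrh, the hinge protein of complex III, had 105 to 121 CPM in dams (median 111), against 101, 98.8 and 99.0 CPM in virgins (log2 fold change 0.17 ± 0.038 SE, edgeR adjusted p = 0.00978), and Cox7b 103 to 117 CPM in dams (median 111), against 101, 94.8 and 102 CPM in virgins (log2 fold change 0.16 ± 0.036 SE, edgeR adjusted p = 0.0103). Both were also without overlap. Atp5j2, the f subunit of the ATP synthase, had 56.8 to 68.4 CPM in dams (median 62.8), against 52.7, 57.0 and 57.8 CPM in virgins (log2 fold change 0.16 ± 0.043 SE, edgeR adjusted p = 0.0255), with 1 or more dams inside the range of the virgins. In all, 9 members and 145 of 13599 genes had every dam above every virgin. The count was 4 without VirO, 6 without VirM and 7 without VirB. Red blood cell markers were higher in dams for 4 of 5 genes, with a sum of 152 to 853 CPM in dams and 142 to 187 CPM in virgins, and their part in the result was not tested.

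The members called in the neocortex were most numerous at PP1. Higher calls numbered 4 at PC16 (0.809% of all genes), 33 at PP1 (6.01%), 10 at PP3 (3.35%) and 6 at PP10 (0.973%), where Cox6a1 was lower (log2 fold change -0.18 ± 0.048 SE, edgeR adjusted p = 0.0481, with 1.07% of all genes called lower). None was called at PC14 (0.0449% of all genes in either direction; 16 members had an unadjusted p under 0.05). The members' median log2 fold changes were 0.049, 0.095, 0.13, 0.086 and 0.046 from PC14 to PP10, and 36 members were called at least once (16.5% of all genes). The PP1 calls were 10 of 36 in complex I, 2 of 4 in complex II, 5 of 8 in complex III, 7 of 14 tested in complex IV and 9 of 16 in complex V. Cox5a had 105, 111 and 112 CPM in virgins, 121, 124 and 116 at PC14, 127, 118 and 122 at PC16, 136, 132 and 132 at PP1, 124, 126 and 125 at PP3, and in PP10 dams 127, 125 and 134 CPM. Its log2 fold change was 0.29 ± 0.042 (SE; edgeR adjusted p = 0.000274) at PP1, 0.19 ± 0.042 (SE; edgeR adjusted p = 0.00621) at PP3 and 0.23 ± 0.041 (SE; edgeR adjusted p = 0.00427) at PP10. Ndufv2 had 72.8, 68.9 and 74.5 CPM at PP1, against 60.0, 59.6 and 61.0 CPM in virgins (log2 fold change 0.26 ± 0.047 SE, edgeR adjusted p = 0.00118), and was also called at PC16 (log2 fold change 0.18 ± 0.047 SE, edgeR adjusted p = 0.0435) and PP3 (log2 fold change 0.23 ± 0.047 SE, edgeR adjusted p = 0.00388). Uqcr10, a small subunit of complex III, was called at PP1 (log2 fold change 0.23 ± 0.043 SE, edgeR adjusted p = 0.00126) and Ndufb4, of the membrane arm of complex I, at PP3 (log2 fold change 0.22 ± 0.046 SE, edgeR adjusted p = 0.00404). At PC16 the genes with the smallest p besides Ndufv2 were Ndufa4 (log2 fold change 0.18 ± 0.041 SE, edgeR adjusted p = 0.0252) and Atp5j2 (log2 fold change 0.22 ± 0.055 SE, edgeR adjusted p = 0.0401). At PP10, Atp5c1, the gamma subunit of the central stalk (log2 fold change 0.19 ± 0.041 SE, edgeR adjusted p = 0.0194), and Cox5b, a zinc-binding subunit of complex IV (log2 fold change 0.15 ± 0.036 SE, edgeR adjusted p = 0.0307), followed Cox5a. Without single libraries the PC16 count was 0 without any 1 of E1654, E1655, E1658, VirB and VirO, 1 without VirM and 2 without any 1 of P146, P353, P357, P1052 and P1063. At PP1 it was 12 without P146 and 18 without VirO, at PP3 5 without P347 or VirO and 6 without VirM, and at PP10, in either direction, 1 without P1052 or P1063, 2 without any 1 of P1071, VirB, VirM and VirO and 4 without E1467.

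**Figure D3:**
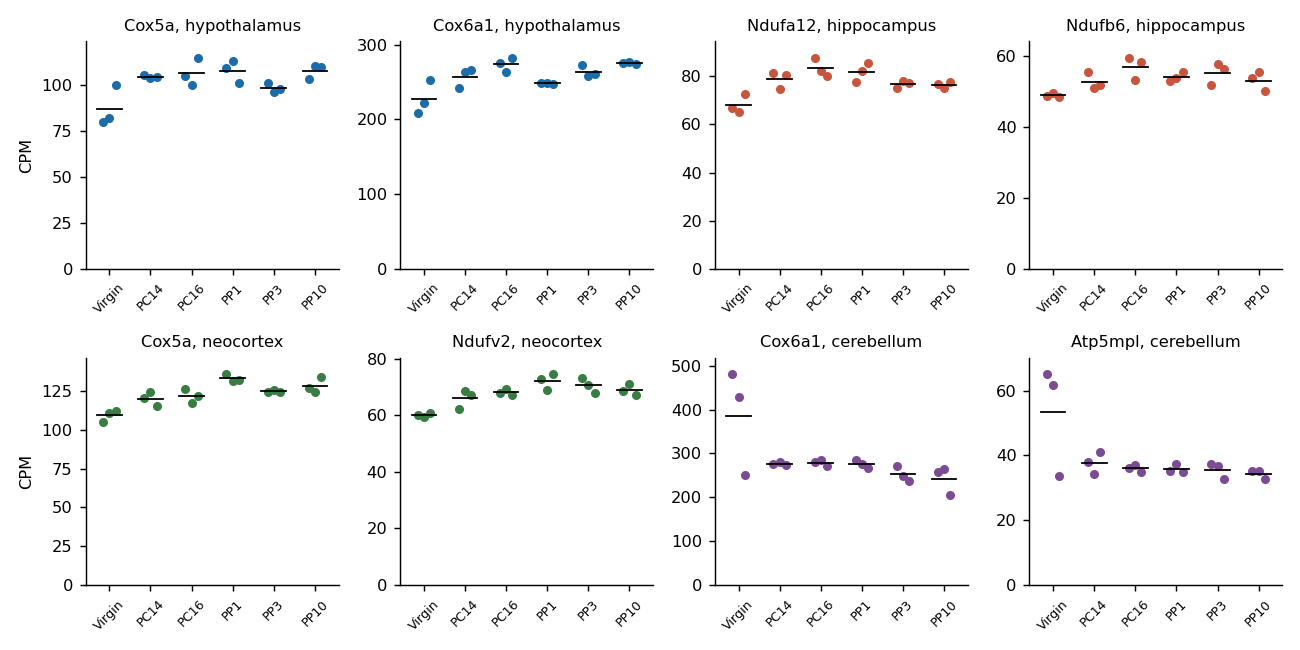
CPM per library, by stage, of 2 members in each region: Cox5a and Cox6a1 (hypothalamus), Ndufa12 and Ndufb6 (hippocampus), Cox5a and Ndufv2 (neocortex), and Cox6a1 and Atp5mpl (cerebellum). Points are single mice and bars are the means of 3 mice. In the cerebellum VirB and VirM lie above every dam for both genes and VirO among the dams, and in the hippocampus and neocortex panels every dam lies above every virgin.

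In the cerebellum 64 of 82 members were lower in dams than in virgins and none was higher, against 15.6% of all genes called lower. The calls rest on VirB and VirM, the libraries in which short transcripts of any kind were over-represented. The count was 1 without VirB or VirM, the gene left being Ndufv3 in both cases, with log2 fold changes of -0.33 (edgeR adjusted p = 0.0478) without VirB and -0.41 (0.0452) without VirM. Without VirO it was 77. With both VirB and VirM left out, a fit added after seeing the data, the members' median log2 fold change was 0.098, 77 of 82 values were positive and 1 member was called, Cox6b2, which was higher (0.94 ± 0.20, SE; edgeR adjusted p = 0.0439), while 0.0724% of all genes were called higher. In that fit the lone virgin VirO was assumed to vary like the other groups. With all libraries the members' median log2 fold change was -0.29 and that of all genes -5.5e-06, and 1 member had a positive value. Lower calls were 31 of 36 in complex I, 2 of 4 in complex II, 5 of 8 in complex III, 11 of 15 in complex IV, 13 of 16 in complex V and 2 of the 3 genes that are not subunits. The members with the largest log2 fold changes all had the same arrangement. Cox6a1 had 205 to 285 CPM in dams (median 272), against 480.0, 428 and 250.4 CPM in virgins (log2 fold change -0.55 ± 0.11 SE, edgeR adjusted p = 0.00375), and Atp5mpl, a small proteolipid of the ATP synthase, had 32.7 to 40.9 CPM in dams (median 35.1), against 65.0, 61.7 and 33.6 CPM in virgins (log2 fold change -0.58 ± 0.11 SE, edgeR adjusted p = 0.00356). Ndufa5, of the matrix arm of complex I, had 43.5 to 55.8 CPM in dams (median 50.8), against 93.9, 85.0 and 47.0 CPM in virgins (log2 fold change -0.58 ± 0.12 SE, edgeR adjusted p = 0.00375). In each of them VirB and VirM lay above every dam and VirO within the range of the dams. Ndufa4l2 had 2.13 to 3.83 CPM in dams (median 2.73), against 5.75, 4.85 and 2.71 CPM in virgins (log2 fold change -0.65 ± 0.18 SE, edgeR adjusted p = 0.0136) and Cox6a2 0.926 to 2.48 CPM in dams (median 1.91), against 3.10, 4.16 and 1.31 CPM in virgins (log2 fold change -0.70 ± 0.26 SE, edgeR adjusted p = 0.0486), also with VirO among the dams. No member had all dams below all virgins, against 171 of 13817 genes. Astrocyte markers were higher in dams for 3 of 5 genes, and oligodendrocyte markers lower for 4 of 6, microglia markers for 2 of 6, mural cell markers for 2 of 5 and ependyma markers for 1 of 4. Ependyma markers summed to 27.9 to 39.7 CPM in dams, against 44.4, 43.0 and 34.2 CPM in virgins. None of 6 choroid plexus markers was called by edgeR, 0 had an unadjusted p under 0.05, and their sum was 34.3 to 2857 CPM in dams, against 3130, 3548 and 817 CPM in virgins, so for both lists VirB and VirM lay above every dam and VirO among the dams. The part of these lists in the result was not tested.

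By stage, members called lower in the cerebellum numbered 23 at PC16 (5.29% of all genes), 17 at PP1 (4.95%), 42 at PP3 (8.58%) and 39 at PP10 (8.76%), and none was higher. No member was called at PC14, where 0.156% of all genes were called in either direction and 65 members had an unadjusted p under 0.05. The members' median log2 fold changes were -0.27, -0.30, -0.24, -0.32 and -0.32 from PC14 to PP10, and 51 members were called at least once (25.0% of all genes). Ndufb3, of the membrane arm of complex I, had log2 fold changes of -0.53 ± 0.12 (SE; edgeR adjusted p = 0.0239) at PC16, -0.55 ± 0.12 (SE; edgeR adjusted p = 0.0216) at PP1 and -0.55 ± 0.12 (SE; edgeR adjusted p = 0.0165) at PP3. Ndufv3, an accessory subunit of the NADH-binding module, had -0.42 ± 0.11 (SE; edgeR adjusted p = 0.0288) at PP1, -0.49 ± 0.11 (SE; edgeR adjusted p = 0.0153) at PP3 and -0.55 ± 0.11 (SE; edgeR adjusted p = 0.00939) at PP10. Its CPM were 68.2, 67.3 and 61.0 at PP10, against 113, 103 and 71.4 in VirB, VirM and VirO. Uqcrb, a small subunit of complex III, was lower at PC16 (log2 fold change -0.65 ± 0.13 SE, edgeR adjusted p = 0.0154) and PP1 (log2 fold change -0.49 ± 0.13 SE, edgeR adjusted p = 0.0319), Ndufb11 at PC16 (log2 fold change -0.37 ± 0.088 SE, edgeR adjusted p = 0.0257), Atp5k, the e subunit of the ATP synthase, at PP3 (log2 fold change -0.60 ± 0.14 SE, edgeR adjusted p = 0.0168), and Ndufs6, a zinc-binding subunit of complex I, and Cox6a1 at PP10 (log2 fold change -0.56 ± 0.13 SE, edgeR adjusted p = 0.0137 and -0.68 ± 0.15 SE, edgeR adjusted p = 0.0132). No member was called at any stage once VirB and VirM were both left out. Leaving out 1 library gave 0 without any 1 of E1654, E1655, VirB and VirM, 1 without E1658, 12 without P353, 13 without any 1 of E1468, P149 and P357, 14 without any 1 of E1464, P156 and P1063, 15 without E1467 or P146 and 76 without VirO at PC16 and 0 without any 1 of P146, P149, P156, VirB and VirM, 5 without E1654 or P353, 6 without E1655, 7 without any 1 of E1464, P357 and P1063, 8 without E1468, 11 without P1052 and 73 without VirO at PP1. The PP3 count was 0 without any 1 of P353, P357, VirB and VirM, 25 without P347 and 73 without VirO, the PP10 count 0 without any 1 of P1071, VirB and VirM, 15 without P1063, 21 without P1052, 24 without P353, 25 without any 1 of E1468, E1654, P149 and P357 and 73 without VirO, and the PC14 count 76 without VirO.

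Postpartum and pregnant mice were compared without the virgin libraries in the contrast. No member was called between the 9 postpartum and the 6 pregnant mice in any region, where 0.243%, 0.323%, 1.77% and 0.174% of all genes were called in the hypothalamus, hippocampus, neocortex and cerebellum, and 0, 7, 9 and 4 members had an unadjusted p under 0.05 by edgeR. The medians of the members' log2 fold changes were 0.0077, -0.0028, 0.013 and 0.0019. A single call appeared in the cerebellum when VirO was left out of the shared fit (Ndufs1, higher postpartum by 0.14 on the log2 scale, edgeR adjusted p = 0.0326), and 1 when VirB and VirM were. Tested for any difference among the 6 stages, 14 of 81 members were called in the neocortex (8.67% of all genes), 1 in the hippocampus (1.62%), which was Ndufa12 with an edgeR adjusted p of 0.0329, and none in the hypothalamus (0.973%) or cerebellum (1.24%), where 15 and 46 members had an unadjusted p under 0.05. The neocortex genes were Atp5b, Atp5c1, Atp5g3, Cox5a, Cox5b, Ndufa4, Ndufa9, Ndufb3, Ndufb4, Ndufb6, Ndufb8, Ndufb9, Ndufv2 and Uqcr10. In the neocortex the count was 5 without P146, 6 without VirO, 7 without any 1 of P149, P156 and P1071, 8 without any 1 of P1052, VirB and VirM and 9 without E1467 or E1655. In the hippocampus it was 0 without any 1 of E1468, E1654, E1655, P149, P357 and VirB, 2 without any 1 of E1658, P146, P347 and P353 and 3 without VirM. Without VirO it was 4 in the hypothalamus and 74 in the cerebellum.

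The differences were set beside those of other genes of like length. When all other tested genes were placed in 10 equal bins of implied length, 62 or 63 members fell in the shortest bin in each region. In the cerebellum the median log2 fold change of dams over virgins was -0.25 in the shortest bin and 0.19 in the longest, and 40.5% of the other genes in the shortest bin were called lower and 3.06% higher. The trend ran the opposite way, and was smaller, elsewhere: 0.021 in the shortest and -0.033 in the longest bin of the hypothalamus, 0.042 and -0.048 of the hippocampus, and 0.036 and -0.017 of the neocortex. Members minus the median of their own bin had medians of 0.081, 0.036, 0.050 and -0.046 for the hypothalamus, hippocampus, neocortex and cerebellum, against 0.10, 0.075, 0.080 and -0.29 before. Above their bin were 72 of 81, 66 of 82, 66 of 81 and 24 of 82 members. With exon length in place of implied length the medians were 0.084, 0.042, 0.058 and -0.14. Fits that carried a per-library offset on length, estimated on the other genes, changed the counts of the hippocampus, neocortex and cerebellum. With the offset on exon length, members called higher in dams numbered 8 for the hypothalamus (3.44% of all genes), 3 for the hippocampus (2.09%) and 7 for the neocortex (3.09%), while for the cerebellum 31 were lower (10.6%) and 2 higher (9.97%). With the offset on implied length they numbered 9 (3.38%), 1 (2.06%) and 4 (3.05%), and in the cerebellum 11 were lower (7.69%) and 6 higher (8.04%). The counts of the hypothalamus thus stayed near 8 under both, and Atp5b, Cox5a, Cox6a1, Cox7b, Ndufa4 and Ndufb6 kept their calls. In the hippocampus Ndufa12 kept its call under both offsets (0.17 with the implied length offset, edgeR adjusted p = 0.00973), and in the neocortex Cox5a, Ndufv2 and Atp5c1 did. The 6 cerebellum members higher with the implied length offset were Atp5c1, Cox5a, Cox5b, Ndufab1 and the complex III core proteins Uqcrc1 and Uqcrc2, with log2 fold changes between 0.11 and 0.20, and the 11 lower ones lay between -0.33 (Ndufa11) and -0.11 (Ndufa4), so the cerebellum direction of single members depended on the offset.

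**Figure D4:**
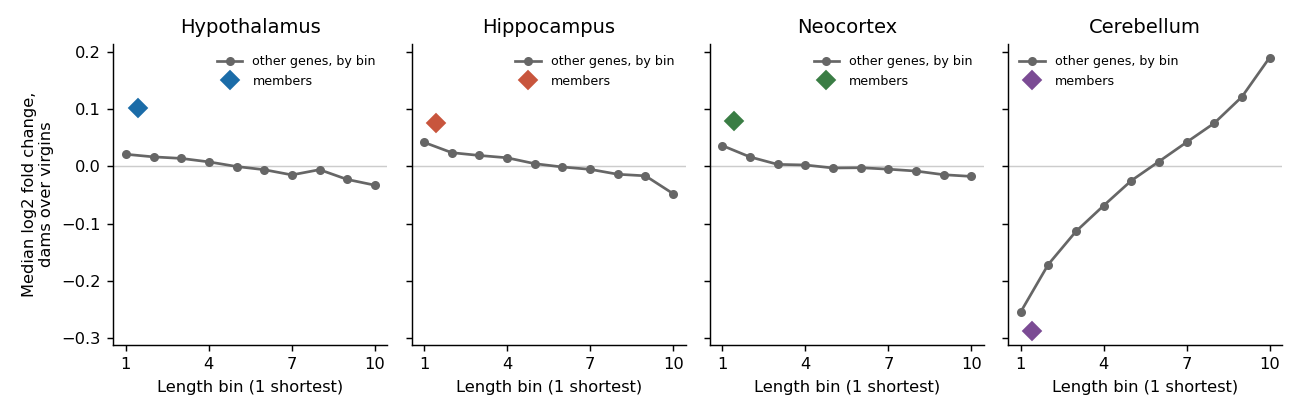
Median log2 fold change of dams over virgins in 10 bins of implied transcript length, shortest to longest, of all other genes, with the members drawn as a diamond at their mean bin number, by region. In the cerebellum the bins run between -0.25 and 0.19 and the members lie at -0.29, and in the other regions the bins stay within 0.05 of 0 and the members lie at 0.075 to 0.10.

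Several members were called in more than 1 region. Of the hypothalamus, hippocampus and neocortex, 27 members were higher in dams in at least 1, against 7.12% of all 14995 genes tested in any of them, 7 in at least 2 (Atp5g3, Cox5a, Cox7b, Ndufa12, Ndufa4, Ndufb6, Uqcrh), against 0.654%, and 1, Ndufb6, in all 3, against 0.0467%. The regions come from the same mice and are not independent. Of these 7, the promoter stretches printed above hold the ETS motif for Ndufb6 and Uqcrh, and the window of Atp5g3 holds the ERR site. Of the 66 members with a promoter entry, 50% held at least 1 of the 4 motifs, and 16 of 82 members had no entry. A link between motifs and calls was not tested. In 1 fit of all 72 libraries, the difference of dams from virgins varied among regions for 74 of 82 members, against 36.6% of all 15348 genes. With the cerebellum libraries of VirB and VirM left out and all others kept, a fit added after seeing the data, the count was 0 (5.18% of all genes), and 7 members had an unadjusted p under 0.05 by edgeR. Leaving out all 4 libraries of a mouse gave 19 without VirB and 53 without VirM. Without both mice, which leaves 1 virgin in each region, it was 0 (0.0326% of all genes), and 5 members had an unadjusted p under 0.05.

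Levels of the members were also compared between regions. Set against the mean of the other 3 regions over all stages, in counts scaled over the 72 libraries, members were mostly lower in the hypothalamus and mostly higher in the cerebellum. Members higher and lower numbered 14 and 60 for the hypothalamus (44.6% and 42.3% of all genes), 31 and 19 for the hippocampus (39.2% and 39.1%), 33 and 26 for the neocortex (39.7% and 43.1%) and 59 and 9 for the cerebellum (43.9% and 43.0%). The members' median log2 differences were -0.18, 0.019, 0.021 and 0.17, against 0.0088, -0.0053, -0.027 and 0.0012 over all genes. The hypothalamus was lower for all 8 complex III, 13 of 15 complex IV and 15 of 16 complex V members and for 3 of 4 in complex II, while complex I was divided, with 12 members higher and 20 lower. In the cerebellum 23 of 36 complex I, 2 of 4 complex II, 7 of 8 complex III, 12 of 15 complex IV and 14 of 16 complex V members were higher. Without virgin mice VirB and VirM the counts higher and lower were 19 and 51, 36 and 19, 40 and 26, and 50 and 20, and the members' medians were -0.16, 0.036, 0.026 and 0.095. The lower count of the cerebellum and the medians of the hippocampus and cerebellum moved by more than 1.5 times. With only their cerebellum libraries left out, the cerebellum had 50 members higher and 18 lower and a median of 0.10, and the medians of the hippocampus and neocortex were 0.036 and 0.040. Hypothalamus libraries were made from less RNA, so region and input cannot be told apart. In the hypothalamus the shortest bin of other genes by implied length had a median log2 difference of 0.14 and the longest -0.097, beside -0.18 for the members. The part of RNA input was not tested.

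Cox8a averaged 227 ± 14.02 CPM in the hypothalamus, against 347.3 ± 15.7, 379 ± 18.6 and 389 ± 61.1 CPM in the hippocampus, neocortex and cerebellum (SD, n = 18), a log2 difference of -0.71 ± 0.028 (SE; edgeR adjusted p = 2.5e-31). Ndufa4 averaged 76.7 ± 5.08 CPM there, against 114 ± 5.67, 119 ± 5.96 and 131 ± 22.1 CPM (log2 difference -0.66 ± 0.026 SE, edgeR adjusted p = 7.8e-32). Both were lowest in the hypothalamus. The means of the hippocampus and neocortex lay within about 1 SD of the cerebellum mean, but that SD includes VirB and VirM. In the cerebellum the median was 375 CPM for Cox8a (highest library 564) and 123 CPM for Ndufa4 (highest library 197). Against the mean of the other regions, the hypothalamus was higher for Ndufs7 (log2 difference 0.22 ± 0.026 SE, edgeR adjusted p = 1.2e-11), Ndufc2 (log2 difference 0.22 ± 0.023 SE, edgeR adjusted p = 9.0e-13) and Cox6b2 (log2 difference 0.48 ± 0.11 SE, edgeR adjusted p = 4.3e-05). It was not the highest region for them. The hypothalamus averaged 117, 91.0 and 6.27 CPM in that order, and the cerebellum 118, 92.4 and 8.98 CPM. Ndufb9, of the membrane arm of complex I, was higher in the neocortex (log2 difference 0.38 ± 0.024 SE, edgeR adjusted p = 8.7e-22) and in the hippocampus (log2 difference 0.32 ± 0.024 SE, edgeR adjusted p = 1.1e-18), with 132 ± 5.35 and 128 ± 5.42 CPM there, against 78.4 ± 5.00 CPM in the hypothalamus and 104 ± 13.3 CPM in the cerebellum. Ndufa10, also of complex I, was higher in the hippocampus (log2 difference 0.29 ± 0.019 SE, edgeR adjusted p = 1.8e-21) and Cox7b in the neocortex (log2 difference 0.30 ± 0.025 SE, edgeR adjusted p = 5.7e-17). In the cerebellum Ndufa8, an accessory subunit of complex I, and Cox7a2l were lower (log2 difference -0.25 ± 0.025 SE, edgeR adjusted p = 2.3e-13 and -0.22 ± 0.026 SE, edgeR adjusted p = 1.2e-11).

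The largest regional differences were those of the tissue isoforms of complex IV. Cox7a1 averaged 3.22 ± 0.712 CPM in the cerebellum, against 1.12 ± 0.267, 0.941 ± 0.289 and 0.796 ± 0.188 CPM in the hypothalamus, hippocampus and neocortex (log2 difference 1.76 ± 0.085 SE, edgeR adjusted p = 2.3e-27), and Cox4i2 2.01 ± 0.488 CPM, against 0.732 ± 0.206, 0.703 ± 0.286 and 0.856 ± 0.291 CPM (log2 difference 1.42 ± 0.099 SE, edgeR adjusted p = 6.9e-20). Cox6a2 went the other way, with 1.86 ± 0.735 CPM in the cerebellum (log2 difference -1.36 ± 0.095 SE, edgeR adjusted p = 5.8e-20) and 7.12 ± 0.799 CPM in the neocortex (log2 difference 1.27 ± 0.076 SE, edgeR adjusted p = 1.0e-22), between which lay the hypothalamus with 3.60 ± 0.887 and the hippocampus with 3.96 ± 0.683 CPM. Cox6b2 was lowest in the neocortex, at 1.90 ± 0.512 CPM (log2 difference -1.82 ± 0.14 SE, edgeR adjusted p = 1.4e-18), against 6.27 ± 1.28, 5.57 ± 2.21 and 8.98 ± 2.20 CPM in the hypothalamus, hippocampus and cerebellum. The hypothalamus and hippocampus differed by less than 1 SD for Cox4i2, Cox6a2, Cox6b2 and Cox7a1. Cox8b averaged 5.37 ± 3.49 CPM in the hippocampus (log2 difference 3.55 ± 0.29 SE, edgeR adjusted p = 1.3e-16), against 0.133 ± 0.142, 0.378 ± 0.238 and 1.47 ± 0.894 CPM in the hypothalamus, neocortex and cerebellum, and the differences of those regions from the rest were -3.59 ± 0.50 (SE; edgeR adjusted p = 3.6e-09), -1.34 ± 0.61 (SE; edgeR adjusted p = 0.0408) and 1.38 ± 0.32 (SE; edgeR adjusted p = 7.7e-05). The neocortex call was lost without any 1 of mice E1464, E1658, P156, P357 and P1071 and without the cerebellum libraries of VirB and VirM, and the hypothalamus call without mice VirB and VirM. Choroid plexus markers also reached their highest sums in the hippocampus, with 84.4 to 5645 CPM, against 45.5 to 67.7, 13.3 to 219 and 34.3 to 3548 CPM in the hypothalamus, neocortex and cerebellum. Their median sum was higher in the hypothalamus (57.3 CPM) than in the neocortex (29.6 CPM), the reverse of Cox8b. The part of these markers was not tested. The ubiquitous counterparts differed less: Cox7a2 averaged 48.7 ± 4.28, 72.6 ± 3.33, 77.4 ± 3.78 and 73.7 ± 8.57 CPM, and Cox6b1 109, 115, 118 and 120.4 CPM in the hypothalamus, hippocampus, neocortex and cerebellum.

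**Figure D5:**
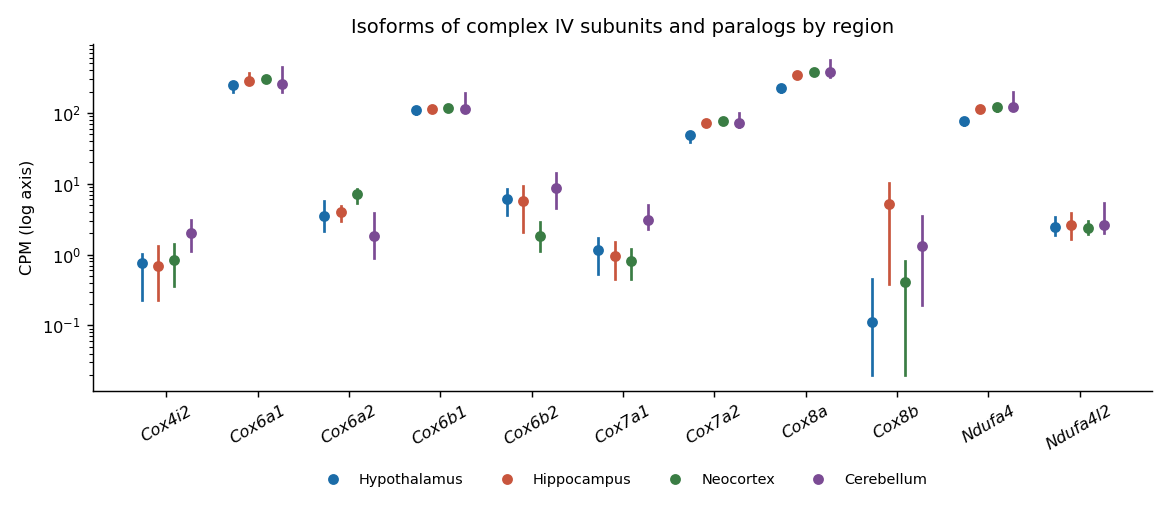
CPM of tissue isoforms of complex IV and their counterparts by region on a log axis, scaled over all 72 libraries. Points are medians and lines run between the lowest and highest of 18 libraries, with libraries at or near 0 drawn at the lower limit of the axis. Cox7a1 and Cox4i2 lie highest in the cerebellum, Cox6a2 in the neocortex and Cox8b in the hippocampus.

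Other genes of the pathway were set beside the members, as genes called higher and lower in dams in the hypothalamus, hippocampus, neocortex and cerebellum. Of 13 subunits encoded by mitochondrial DNA, none was called in the hypothalamus or hippocampus, 1 was higher in the neocortex, and 1 was higher and 10 lower in the cerebellum, with medians of 0.033, 0.059, 0.050 and -0.24 on the log2 scale. Cytochrome c and Cyc1 had 1 call higher in the hypothalamus and 2 lower in the cerebellum. The hypothalamus call was Cyc1 (0.23, edgeR adjusted p = 0.00154), the cytochrome subunit of complex III. Its symbol does not match the name rule, so it was not among the members. Assembly factors of the complexes (48 tested) had 1 higher, none, 3 higher and 1 lower, and 1 higher and 13 lower, with medians of 0.084, 0.046, 0.078 and -0.11. Of 17 citric acid cycle genes 1 was higher in the hypothalamus and 1 higher and 2 lower in the cerebellum (medians 0.080, 0.030, 0.026 and -0.040). Glycolysis genes (16 tested) had 6 higher, 1 higher, 1 higher and 4 lower, with medians of 0.12, 0.038, 0.040 and -0.060. Mitochondrial carriers (6 tested) gave 4 calls, lower in the cerebellum, with medians of 0.075, 0.017, 0.052 and -0.15. Regulators of mitochondrial genes gave 1 call higher in the hypothalamus and 4 higher in the cerebellum, with medians of 0.029, -0.035, 0.045 and 0.077. Of 77 mitochondrial ribosomal proteins, none, 3 higher, 4 higher, and 1 higher and 41 lower were called, with medians of 0.054, 0.037, 0.064 and -0.22. Cytosolic ribosomal proteins, another set of short transcripts, had none, 1 higher and 1 lower, 27 higher, and 66 lower of 91 or 92, with medians of 0.025, 0.044, 0.13 and -0.30. Beside these lists, 3.18%, 2.23% and 2.98% of all genes were called higher in the hypothalamus, hippocampus and neocortex, and 13.9% higher and 15.6% lower in the cerebellum, where VirB and VirM set the contrast.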

How the data were processed

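Total RNA of 4 brain regions was sequenced in 72 libraries. The authors trimmed reads with Trimmomatic (0.32), aligned them to GRCm38 (Ensembl release 75) with TopHat2 (2.0.8), deposited whole-number counts per gene made with easyRNASeq, and deposited FPKM values from Cufflinks (2.1.1). Blank FPKM cells were read as 0. Symbols and exon lengths came from GENCODE M21, a GRCm38 annotation.

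Counts were tested with edgeR (4.0.16, R 4.3.3): TMM scaling, a quasi-likelihood F test, 1 coefficient per stage over the 18 libraries of a region (or per region and stage over 72), and Benjamini-Hochberg adjustment over all genes that passed the FPKM rule. Log2 CPM used a prior count of 2. DESeq2 (1.42.0) and edgeR's exact test served as alternatives, beside no filter, length offsets, a mouse block, and leaving out each library. Fits without the cerebellum libraries of VirB and VirM, or without the hippocampus libraries of P156 and P353, were added after seeing the data. On simulated counts with 200 changed genes, 85 to 90% of those changed 1.5-fold were recovered in dams against virgins. The simulated libraries carried no length differences. Called members of the hypothalamus, hippocampus and neocortex other than Cox8b had smaller log2 fold changes, 0.092 to 0.27. Recovery at that size was not measured.

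The members and all gene lists were chosen with earlier results of these data known. Genes were named by rule: the largest called differences per comparison (5 per direction for dams, 3 for regions), the 3 smallest p per stage, the highest member of each complex, the isoform pairs, and genes left out; members named beside these were chosen after their values were seen. Each mouse gave all 4 regions, which pairs the libraries. Deviations of the same mouse correlated with a median r of 0.057 over 108 pairs (-0.19 to 0.19; 29 over 0.1). Replicates were separate mice. No library pair was identical. Total counts bound the precision, and p-values cover the spread between mice.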

Additional observations from a re-analysis of the deposited data

Results flagged for a closer look

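The difference of dams from virgins varied among the 4 regions for 74 of 82 members by an edgeR interaction test. It was singled out because effects of the same contrast differed between regions. Without the cerebellum libraries of virgin mice VirB and VirM the count was 0, and 7 members had an unadjusted p under 0.05.

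Cox4i1, the main isoform of complex IV subunit 4, was left out by the FPKM rule because its FPKM cells are blank, yet it had a mean count of 4830 over 72 libraries. Tested without the filter, its log2 fold change of dams over virgins was 0.11 in the hypothalamus (edgeR adjusted p = 0.347), 0.067 for hippocampus (0.321), 0.016 for neocortex (0.904) and -0.33 for cerebellum (0.00175). In the cerebellum it had 643, 591 and 396 CPM of total counts in VirB, VirM and VirO, against 370 to 461 in dams. VirB and VirM thus lay above every dam and VirO among the dams, the arrangement seen in the members called there.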

How the results depend on the processing

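Members called among the 6 stages in the hypothalamus numbered 1 without the filter, 1 with the exon length offset, 1 with the implied length offset and 4 with DESeq2, against 0. In the hippocampus the counts were 3 and 1 for dams over virgins with the exon and implied length offsets, 5 and 2 for any stage against virgins, and for any difference among stages 7 without the filter, 5 with DESeq2 and 4 without P156 and P353. The members' median was 0.046 and 0.034 with the offsets.

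In the neocortex dams over virgins gave 7 and 4 with the offsets and 10 with DESeq2, any difference among stages 6, 3 and 9, and any stage against virgins 23 and 15 with the offsets, with medians of 0.057 and 0.042. In the cerebellum dams over virgins gave 33 and 17 with the offsets and 1 without VirB and VirM, with medians of -0.13, -0.038 and 0.098. Any difference among stages gave 32 without the filter, 2 and 3 with the offsets and 23 with DESeq2. Any stage against virgins gave 22 and 16 with the offsets, 6 with the exact test and 0 without VirB and VirM, where postpartum against pregnancy gave 1. Without both virgins the sign was positive for Cox6a2 (0.41), Ndufa4l2 (0.062), Ndufa5 (0.099), Atp5mpl (0.091), Cox6a1 (0.076), and at PP1 Ndufv3 (0.0048) and Uqcrb (0.033). The cause was not tested beyond the length values above.

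Leaving out 1 library gave 0 to 23, 0 to 13, 4 to 17 and 1 to 77 calls for dams over virgins in the hypothalamus, hippocampus, neocortex and cerebellum, 1 to 36, 1 to 16, 20 to 38 and 0 to 79 for any stage against virgins, 0 to 4, 0 to 3, 5 to 15 and 0 to 74 among stages, and 0 to 1 for postpartum against pregnancy in the cerebellum (0 elsewhere). The medians ran between 0.070 and 0.16, 0.061 and 0.084, 0.068 and 0.088, and -0.47 and -0.17.

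Between regions, the hypothalamus had 8 members higher with the length offset, also with the block, and the cerebellum 5 lower without the filter and 20 lower without virgin mice VirB and VirM in all regions or 18 without their cerebellum libraries alone, and in both cases the interaction gave 0. With the mouse as a block, pairing the libraries of 1 animal, counts higher and lower were 14 and 59, 30 and 19, 32 and 25, and 58 and 9, and the interaction gave 75. The block changed no count by over 1.5 times. Leaving out 1 mouse gave 19 to 78 for the interaction.

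With 3 virgins per region, single virgin libraries set most counts, and differences near 0.1 on the log2 scale were detected for few members.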
